A study of Mus musculus with 23 samples.

Results

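Tumour pieces from mice given an IL-27 vector were compared with pieces from mice given an empty vector, all of them exposed to docetaxel after removal from the animal. The comparison holds 2 libraries with the IL-27 vector (IL27v) and 2 with the empty vector (EV), chosen by their labels as 4 of the 23 bulk RNA sequencing libraries of the series. In pieces with the IL-27 vector, transcripts of stratified squamous epithelium were far more abundant: keratins, cornified envelope proteins, desmosomal proteins, basement membrane proteins and connexins. Of 24440 genes tested, 64 rose and 2 fell under the IL-27 vector at a Benjamini-Hochberg adjusted p under 0.05 (edgeR quasi-likelihood test), which is 0.27% of the tested genes, 0.262% higher and 0.00818% lower. Both genes that fell, Rhox5 and Gzmd, had no count in either library with the IL-27 vector.

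The hosts in both groups were male C57/BL6 mice 8 to 10 weeks old. They carried flank tumours of TC2Ras, the mouse prostate cancer line TRAMP-C2 with an activated H-ras (G12V) added by lentivirus. The tibialis anterior muscles were each loaded with 10 µg of plasmid by sonoporation, which uses ultrasound to let DNA into cells: pTSTA-IL27pepL, which encodes IL-27 joined to a peptide, in the IL27v group, and pTSTA-ctrl in the EV group. The plasmid thus went to leg muscle and not to the tumour, and the hosts kept their own immune cells. The labels give neither the dose nor the duration of docetaxel. Nothing says whether the 2 libraries of a group came from separate animals, so the p-values reflect no more than how far these samples differ, and that spread may be technical.

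IL-27 is a secreted cytokine made of a p28 chain, encoded by Il27, and an EBI3 chain. It signals through IL27RA and gp130 to the JAK-STAT pathway and is known for shaping T-cell responses. Docetaxel is a taxane that binds the beta-tubulin of microtubules, stabilises them and blocks mitosis. Stratified squamous epithelium, the tissue of epidermis, has a basal layer that rests on laminin-332 and expresses Krt5 and Krt14, and upper layers that switch to other keratins and cross-link small proline-rich and related proteins into a cornified envelope. The study's design names T-cell transcripts as what the sequencing was to look for, and these are given after the epithelial genes.

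The 4 libraries held 47641781 and 60541211 counts with the IL-27 vector, against 68874311 and 66773701 with the empty vector, within 47641781 to 83088346 over the series. IL27v docetaxel 1 stood apart: 30.4% of its counts came from ribosomal RNA genes, against 1.24% in IL27v docetaxel 2 and 0.536% and 0.341% in the EV libraries. It also had 31.0 CPM (counts relative to the TMM-scaled library size) summed over 16 skeletal muscle genes, against 985 CPM in IL27v docetaxel 2 and 21.8 and 3.41 CPM in the EV libraries. Across genes the 2 IL27v libraries correlated at 0.98 and the 2 EV libraries at 0.978, against 0.939 to 0.964 between vectors. Among epithelial markers, Epcam, an adhesion molecule, had 15.5 and 18.7 CPM in IL27v libraries and 0.058 and 0.199 CPM in EV libraries. The prostate gene Pbsn had no count in any of the 4.

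**Figure D1:**
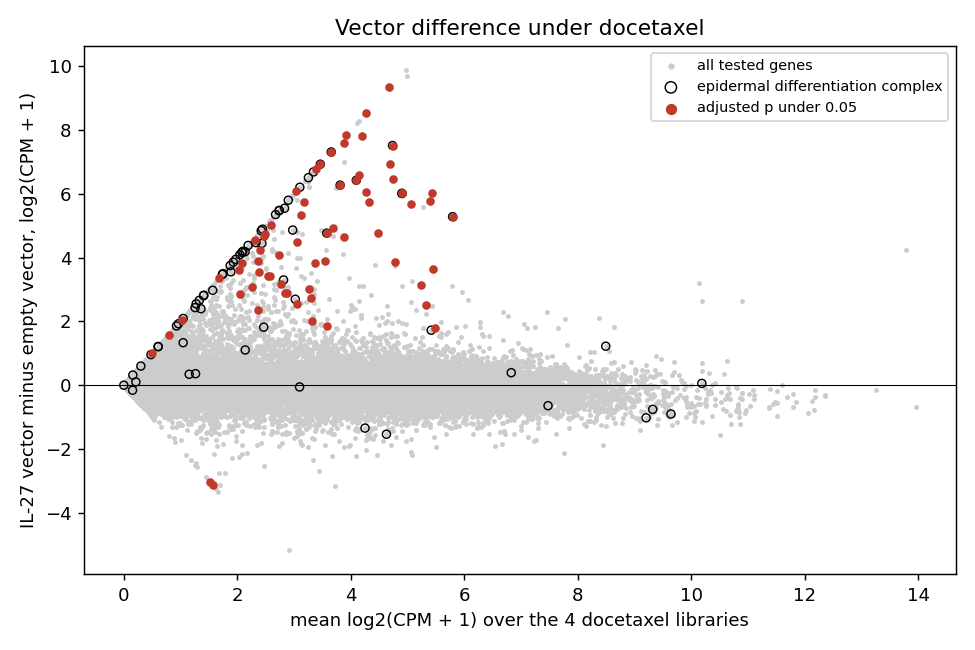
Difference between vectors under docetaxel, in mean log2(CPM + 1) of 2 IL27v minus 2 EV libraries, against the mean level over the 4 libraries, for 24440 tested genes (grey points). The 66 genes past the adjusted threshold are red, and rings mark 69 genes of the epidermal differentiation complex. Most red points lie high above 0, and the 2 that fell lie below it. The line of points along the upper left edge is genes with no count in EV libraries, whose height depends on the added 1.

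All 64 genes that rose had both IL27v libraries above both EV libraries, where 21.7% of all tested genes did and 16.7% had both below. These shares, 21.7% above and 16.7% below, apply to every later count of list members whose groups do not overlap. An unadjusted p under 0.05 for the vector difference was reached by 2444 of all tested genes (10%). That share applies to every later count of list members at such a p. Of the 64, 11 had no count in either EV library, and for the other 53 the ratio of group mean CPM had a median of 52.1. Of all 64, 28 belong to the keratinocyte list or to an epithelial gene family described here, families that were added after their values were seen, and 9 lie in the epidermal differentiation complex. In 58 of the 64, both IL27v docetaxel libraries lay above all 19 libraries of the other ex vivo conditions. The 64 were called for being high in those same 2 libraries, and this share was not computed over all tested genes. The 58 is therefore only a description. Leaving out 1 docetaxel library at a time changed which genes were called. Each such fit lost many of the 66, and most of these fits also called genes outside the 66. No gene was called in all 4 of these fits, in each of which the lone library of a group is assumed to vary like the other groups. Adding the muscle sum as a covariate left 23 genes called, 21 of them among the 66. With all 23 libraries, limma called 613 genes higher and 76 lower (2.51% and 0.311%, 2.82% in all), and DESeq2 called 655 higher and 244 lower (3.34% and 1.24% of the genes it could adjust, 4.58% in all).

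Keratins, the intermediate filament proteins of epithelia, were among the widest differences. Krt16, a keratin of activated and wound-edge epidermis, had 692 and 620 CPM in IL27v libraries and no count in either EV library. Set against a floor of 3 counts per EV library, that is at least 12463-fold higher (edgeR adjusted p = 0.020). Krt80, a keratin linked to desmosomes, had 164 and 144 CPM in IL27v libraries, against 10.1 and 12.9 CPM in EV libraries, a rise of 3.75 ± 0.50 (log2 ± SE; edgeR adjusted p = 0.0047). Krt10, the acidic keratin of suprabasal epidermis, had 14.3 and 47.8 CPM in IL27v libraries, against 1.56 and 3.41 CPM in EV libraries, a rise of 3.64 ± 0.67 (edgeR adjusted p = 0.030). The groups did not overlap for any of the 3, although the IL27v libraries differed from each other for Krt10 by more than the EV libraries did in CPM.

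The basal pair and its hyperproliferative partners showed the same separation without passing the threshold. Krt14 had 960 and 862 CPM in IL27v libraries, against 0.217 and 0 CPM in EV libraries (edgeR adjusted p = 0.10). Krt5, its partner, had 213 and 410 CPM in IL27v libraries and no count in EV libraries (edgeR adjusted p = 0.093). Krt6a had 1009 and 926 CPM in IL27v libraries, against 0 and 0.0497 CPM in EV libraries (edgeR adjusted p = 0.098). Krt17 and Krt6b, both keratins of hair follicle and wounded skin, also had no overlap, at adjusted p = 0.062 and 0.052 in edgeR. Limma, which handles groups at 0 differently, gave adjusted p values of 0.0056 for Krt14, 0.0021 for Krt5, 0.0034 for Krt6a, 0.00077 for Krt17 and 0.00089 for Krt6b.

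Other keratins did not share this pattern. Krt8, the keratin of simple epithelia, had 33.5 and 17.1 CPM in IL27v libraries, against 28.2 and 122 CPM in EV libraries, so the groups overlapped. Krt13, a keratin of mucosal stratified epithelium, had 4.14 and 12.3 CPM in IL27v libraries, against 12.7 and 66.5 CPM in EV libraries, with the IL27v libraries the lower ones. Of 54 keratin genes, 38 passed the filter on low counts, 3 rose, none fell, and 19 had both IL27v libraries above both EV libraries against 2 the other way. Their median log2 difference was 3.69, or 3.52 with genes at 0 in EV libraries set at their bound, beside 0.02 over all tested genes. A gene that is almost absent elsewhere passes that filter only through the IL27v docetaxel libraries. Counts and medians over such families are therefore descriptions of these 4 libraries.

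Small proline-rich proteins (SPRRs), cross-linked precursors of the cornified envelope, rose for 6 of 15 tested members. They are encoded side by side on chromosome 3, in the epidermal differentiation complex. The promoter windows of the members that rose and have an entry in RefSeq (GRCm38.p6) are shown as those of adjacent genes that rose together, beside neighbours (Sprr1a, Sprr2e and Sprr2h, described next) that did not pass the test. Each window runs from 250 bases before to 50 bases after the gene's start, 5′ to 3′ along the gene's strand. Capitals mark matches to TGANTCA, an AP-1-type pattern in which N is any base. As a pattern it reads the same on both strands. The windows lie at chr3:92438730-92439029 (minus strand) for Sprr1b, chr3:92338890-92339189 (plus) for Sprr2d, chr3:92364937-92365236 (plus) for Sprr2f and chr3:92215585-92215884 (plus) for Sprr2a1.
Sprr1b: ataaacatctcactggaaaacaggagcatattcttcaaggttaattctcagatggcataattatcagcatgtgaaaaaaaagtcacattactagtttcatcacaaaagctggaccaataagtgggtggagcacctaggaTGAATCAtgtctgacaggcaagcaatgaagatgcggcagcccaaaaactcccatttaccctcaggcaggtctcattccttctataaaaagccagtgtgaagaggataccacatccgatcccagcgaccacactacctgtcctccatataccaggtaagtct
Sprr2d: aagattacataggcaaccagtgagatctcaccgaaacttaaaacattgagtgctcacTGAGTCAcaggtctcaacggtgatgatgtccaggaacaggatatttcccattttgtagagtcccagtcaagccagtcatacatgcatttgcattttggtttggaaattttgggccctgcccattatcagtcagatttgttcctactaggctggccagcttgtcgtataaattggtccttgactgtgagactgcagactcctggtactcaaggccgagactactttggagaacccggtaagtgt
Sprr2f: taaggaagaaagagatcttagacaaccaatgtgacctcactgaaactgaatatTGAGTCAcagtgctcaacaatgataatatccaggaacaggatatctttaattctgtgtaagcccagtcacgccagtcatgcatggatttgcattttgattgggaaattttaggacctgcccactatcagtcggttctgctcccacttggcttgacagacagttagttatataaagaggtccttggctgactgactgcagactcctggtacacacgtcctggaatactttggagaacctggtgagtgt
Sprr2a1: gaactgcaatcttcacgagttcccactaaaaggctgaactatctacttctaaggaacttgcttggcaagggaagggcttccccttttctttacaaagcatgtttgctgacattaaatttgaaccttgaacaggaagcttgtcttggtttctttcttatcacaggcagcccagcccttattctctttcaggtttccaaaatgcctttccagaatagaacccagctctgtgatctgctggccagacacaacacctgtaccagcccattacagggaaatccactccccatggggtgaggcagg
The windows of Sprr1b, Sprr2d and Sprr2f hold 1 TGANTCA match and 1 TATAAA each, and the window of Sprr2a1 holds neither. The match is TGAATCA in Sprr1b and TGAGTCA in Sprr2d and Sprr2f. The window of Sprr2a2 (chr3:92250397-92250696) has the same letters as that of Sprr2a1, and Sprr2g has no entry. Over the 55 windows of 46 matched genes among the 64 that rose, 14 (25.5%) hold TGANTCA, against 7.81% of 32851 mouse windows. Those 14 windows belong to 11 genes. Both strands were searched. For GGGNGTG, a KLF-type sequence, the shares were 32.7% and 29.2%, and for TATAAA they were 16.4% and 13.6%. A match describes the letters and does not show binding.

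Sprr1b had 582 and 222 CPM in IL27v libraries, against 0.522 and 1.56 CPM in EV libraries, a rise of 8.60 ± 1.33 (log2 ± SE; edgeR adjusted p = 0.016). Sprr2g, annotated as a polymorphic pseudogene, had 117 and 128 CPM in IL27v libraries, against 0.536 and 0.663 CPM in EV libraries, a rise of 7.67 ± 1.13 (edgeR adjusted p = 0.011). Sprr2d had 411 and 291 CPM in IL27v libraries, against 4.69 and 12.9 CPM in EV libraries, a rise of 5.32 ± 0.88 (edgeR adjusted p = 0.017). All IL27v libraries lay far above all EV libraries for these genes. Sprr2f rose by 7.54 ± 1.45 (edgeR adjusted p = 0.036), with 162 and 154 CPM in IL27v libraries and 0.753 and 0.945 CPM in EV libraries. Sprr2a1 and Sprr2a2 both had 142 and 403 CPM in IL27v libraries and 2.48 to 2.98 CPM in EV libraries. The rise was 6.64 ± 1.15 for Sprr2a1 (edgeR adjusted p = 0.022) and 6.64 ± 1.17 for Sprr2a2 (edgeR adjusted p = 0.025). Those copies are so alike that the counting could have split shared reads between them, so they are best read as 1 result.

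Not every SPRR gene followed. Sprr1a, a member also induced by cell stress outside skin, had 1396 and 1015 CPM in IL27v libraries, against 699 and 1870 CPM in EV libraries. Its groups overlapped, at a difference of -0.09 ± 0.75 (log2 ± SE; edgeR adjusted p = 1). Sprr2h had 743 and 407 CPM in IL27v libraries, against 152 and 364 CPM in EV libraries (1.16 ± 0.59, edgeR adjusted p = 0.54). Sprr2e had 138 and 121 CPM in IL27v libraries, against 70.2 and 137 CPM in EV libraries, which overlapped.

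Late cornified envelope (LCE) proteins, made in the outermost living layer, had 930 and 232 CPM summed over 21 genes in IL27v libraries, against 1.17 and 4.18 CPM in EV libraries. All 21 had both IL27v libraries above both EV libraries and none passed the edgeR threshold, although all 21 had an unadjusted p under 0.05. Limma called 20 of them higher and DESeq2 3. At least 17 of the 21 had no count in either EV library. Such genes pass the filter on low counts mainly through the IL27v docetaxel libraries, and the family was added after its values were seen. These LCE counts therefore only describe these 4 libraries. Lce3d had 209 and 38.3 CPM in IL27v libraries and no count in EV libraries, at least 770-fold higher (edgeR adjusted p = 0.081). The first IL27v library held most of these transcripts, in contrast to Krt10 and Krt1, which were higher in the second: Krt1 had 1.43 and 15.6 CPM in IL27v libraries and no count in EV libraries.

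The epidermal differentiation complex as annotated here, from S100a1 to S100a10 (chromosome 3, 90511034 to 93564643 in GRCm38), has 76 coding genes, of which 69 were tested. Of these 9 rose, none fell, and 53 had both IL27v libraries above both EV libraries against 4 the other way. The complex includes the LCE genes, and the limit given for them holds for these counts too. S100a9 and S100a8, calcium-binding proteins of neutrophils that activated keratinocytes also make, lie in it. S100a9 had 154 and 162 CPM in IL27v libraries and no count in EV libraries, at least 3099-fold higher (edgeR adjusted p = 0.039). S100a8 had 67.8 and 78.3 CPM in IL27v libraries and no count in EV libraries, at least 1362-fold higher (edgeR adjusted p = 0.090). S100a6, a calcium-binding protein made by many cells and also in the complex, had 266 and 643 CPM in IL27v libraries and 548 and 1291 CPM in EV libraries, which overlapped.

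**Figure D2:**
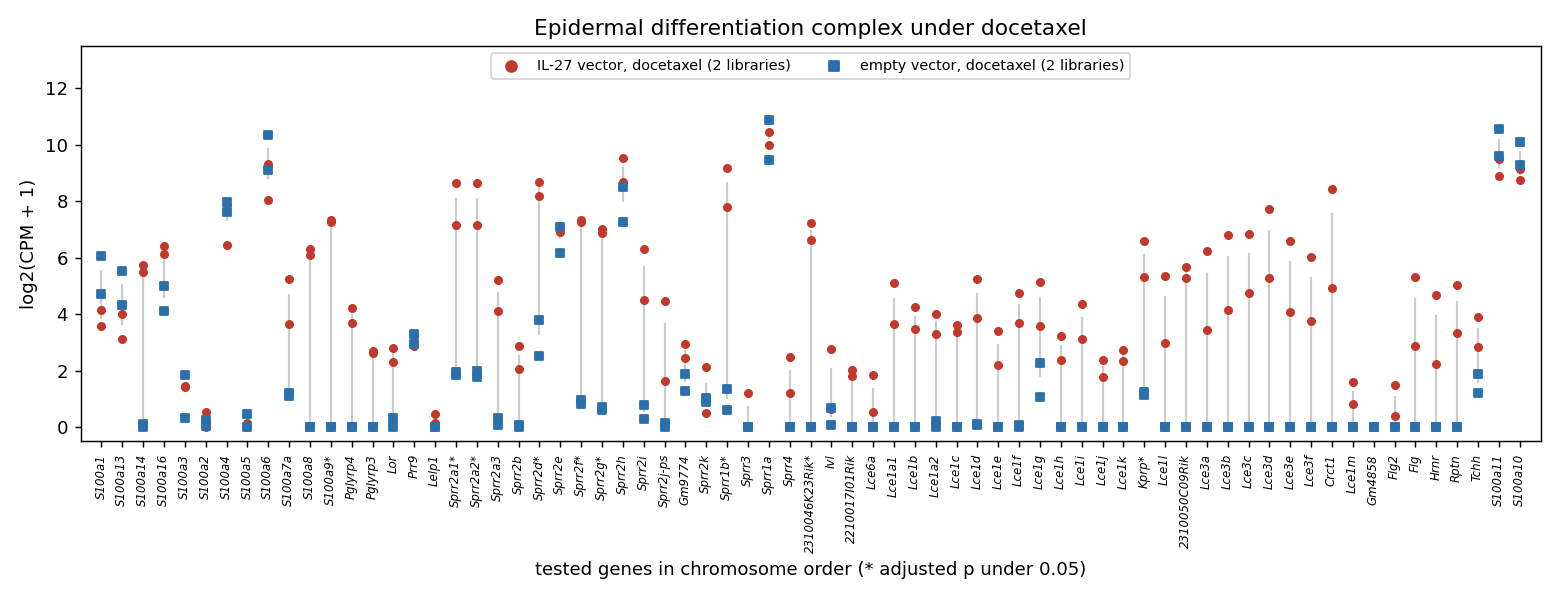
Levels of the 69 tested genes of the epidermal differentiation complex in chromosome order, in log2(CPM + 1) per library, with red circles for the 2 IL27v docetaxel libraries, blue squares for the 2 EV docetaxel libraries and a grey line joining the group means. An asterisk marks the 9 genes past the adjusted threshold. Along the SPRR and LCE runs the circles sit above the squares for most genes, while for Sprr1a and Sprr2e the groups overlap.

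Envelope and cell-surface genes outside the complex rose as well. Sbsn, which encodes suprabasin, had 453 and 268 CPM in IL27v libraries, against 4.11 and 4.56 CPM in EV libraries, a rise of 6.38 ± 1.01 (log2 ± SE; edgeR adjusted p = 0.016). Dmkn, the adjacent gene for dermokine, had 287 and 471 CPM in IL27v libraries and no count in EV libraries, at least 5775-fold higher (edgeR adjusted p = 0.031). Cdsn, which encodes corneodesmosin, the adhesive of cornified cells, had 155 and 157 CPM in IL27v libraries, against 1.39 and 1.38 CPM in EV libraries (6.82 ± 1.27, edgeR adjusted p = 0.032). The replicates of Cdsn were nearly equal within each group. Calm4, a calmodulin-like protein of differentiating keratinocytes, had 216 and 242 CPM in IL27v libraries and no count in EV libraries, at least 4340-fold higher (edgeR adjusted p = 0.038).

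Desmosomes, the junctions that tie keratin filaments of neighbouring cells together, had 3 members that rose among 17 tested of 18 listed. Dsp, encoding the linker desmoplakin, had 224 and 334 CPM in IL27v libraries, against 0.159 and 0.298 CPM in EV libraries, a rise of 10.25 ± 1.93 (log2 ± SE; edgeR adjusted p = 0.033). Ppl, encoding periplakin, had 38.5 and 37.6 CPM in IL27v libraries, against 2.27 and 1.28 CPM in EV libraries (4.42 ± 0.73, edgeR adjusted p = 0.017). Perp, a desmosomal membrane protein and p53 target, had 261 and 313 CPM in IL27v libraries, against 1.52 and 1.19 CPM in EV libraries (7.72 ± 1.49, edgeR adjusted p = 0.036). Of the tested members, 15 had both IL27v libraries above both EV libraries. The desmosomal cadherin Dsg3 had 62.3 and 54.7 CPM in IL27v libraries and no count in EV libraries, at least 1100-fold higher, yet missed the threshold (edgeR adjusted p = 0.20). Pkp2, a plakophilin also found in heart and simple epithelia, went the other way, with 14.1 and 24.6 CPM in IL27v libraries and 33.7 and 39.0 CPM in EV libraries (edgeR adjusted p = 0.30).

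Genes that anchor basal cells to the basement membrane were mostly higher. Of 9 tested, 3 rose, none fell, and 7 had both IL27v libraries above both EV libraries against 1 below. Col17a1, the transmembrane collagen of hemidesmosomes, had 120 and 176 CPM in IL27v libraries, against 2.20 and 1.31 CPM in EV libraries, a rise of 6.39 ± 0.84 (log2 ± SE; edgeR adjusted p = 0.0047). Lama3, a chain of laminin-332, had 19.5 and 35.3 CPM in IL27v libraries, against 0.884 and 0.398 CPM in EV libraries (5.41 ± 0.91, edgeR adjusted p = 0.019). Neither gene had groups that overlapped. Lamb3, of the same laminin, had 19.6 and 29.3 CPM in IL27v libraries, against 0.188 and 0 CPM in EV libraries (edgeR adjusted p = 0.14). Itgb4, the hemidesmosomal integrin beta chain, had 42.9 and 67.3 CPM in IL27v libraries, against 5.68 and 4.97 CPM in EV libraries (edgeR adjusted p = 0.062). Its partner Itga6, which endothelium and tumour cells also use, had 284 and 293 CPM in IL27v libraries and 326 and 178 CPM in EV libraries, which overlapped.

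Among connexins, the channel proteins of gap junctions, the skin pair on chromosome 14 rose. Gjb6, connexin 30, had 55.5 and 76.1 CPM in IL27v libraries, against 0.159 and 0.298 CPM in EV libraries, a rise of 8.16 ± 1.04 (log2 ± SE; edgeR adjusted p = 0.0047). Gjb2, connexin 26, had 123 and 340 CPM in IL27v libraries, against 0 and 0.133 CPM in EV libraries (edgeR adjusted p = 0.044). The other 12 tested connexins did not pass, and Gja1, connexin 43 of many cell types, overlapped at 689 and 934 CPM in IL27v libraries and 1116 and 631 CPM in EV libraries. Of the claudins, seal proteins of tight junctions, Cldn1 rose by 5.62 ± 0.93 (edgeR adjusted p = 0.017), with 24.3 and 59.8 CPM in IL27v libraries and 1.42 and 0.282 CPM in EV libraries.

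Genes for barrier lipids and protease inhibitors of the upper epidermis included further genes that rose. Elovl4, which extends very long chain fatty acids for skin ceramides, had 141 and 94.0 CPM in IL27v libraries, against 3.85 and 2.73 CPM in EV libraries, a rise of 5.15 ± 0.80 (log2 ± SE; edgeR adjusted p = 0.015). Dgat2, a triglyceride synthase, had 29.9 and 9.21 CPM in IL27v libraries, against 0.333 and 0.729 CPM in EV libraries (5.20 ± 0.97, edgeR adjusted p = 0.032). Abca12, the lipid transporter of lamellar granules, had 71.6 and 53.4 CPM in IL27v libraries and no count in EV libraries, at least 1073-fold higher, at an edgeR adjusted p of 0.12. Of 15 lipid barrier genes, 2 rose and 13 had both IL27v libraries above both EV libraries.

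The kallikreins, serine proteases that release cornified cells, summed to 512 and 534 CPM in IL27v libraries, against 1.83 and 4.31 CPM in EV libraries. None of the 11 tested of 26 listed passed in edgeR, 9 had an unadjusted p under 0.05, and limma called 9 and DESeq2 6. Klk7 had 204 and 213 CPM in IL27v libraries, against 0 and 0.0663 CPM in EV libraries (edgeR adjusted p = 0.065). Of the clade B serpins, intracellular protease inhibitors, 2 of 19 tested rose, none fell, and 12 had both IL27v libraries above both EV libraries against 1 below. Serpinb5, maspin, had 42.6 and 125 CPM in IL27v libraries, against 1.84 and 2.09 CPM in EV libraries, a rise of 5.41 ± 0.99 (edgeR adjusted p = 0.029). Serpinb8 had 22.2 and 16.3 CPM in IL27v libraries, against 2.64 and 2.25 CPM in EV libraries (2.97 ± 0.48, edgeR adjusted p = 0.016). The 1 below was Serpinb1a, an inhibitor found in myeloid cells, with 53.1 and 135 CPM in IL27v libraries and 206 and 376 CPM in EV libraries (edgeR adjusted p = 0.12).

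Transcription factors known from epithelia were higher too. Casz1, a zinc-finger factor, had 25 and 19.1 CPM in IL27v libraries, against 0.377 and 0.0663 CPM in EV libraries, a rise of 6.62 ± 0.85 (log2 ± SE; edgeR adjusted p = 0.0047). Klf4, a factor needed for the epidermal barrier, had 82.8 and 132 CPM in IL27v libraries, against 7.58 and 5.04 CPM in EV libraries (4.09 ± 0.60, edgeR adjusted p = 0.011). Trp63, the p53 relative that specifies stratified epithelium, had 26.1 and 30.6 CPM in IL27v libraries, against 0.0145 and 0.0663 CPM in EV libraries (edgeR adjusted p = 0.14; limma 0.012). Grhl3, a factor of terminal differentiation, had 41.6 and 38.7 CPM in IL27v libraries and no count in EV libraries (edgeR adjusted p = 0.11). Zfp750, another such factor, had 39.8 and 31.3 CPM in IL27v libraries and no count in EV libraries (edgeR adjusted p = 0.12). Of 19 tested factors of 20 listed, 2 rose and 18 had both IL27v libraries above both EV libraries. Klf5, also made by other tissues, differed little, with 126 and 117 CPM in IL27v libraries and 109 and 85.6 CPM in EV libraries.

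**Figure D3:**
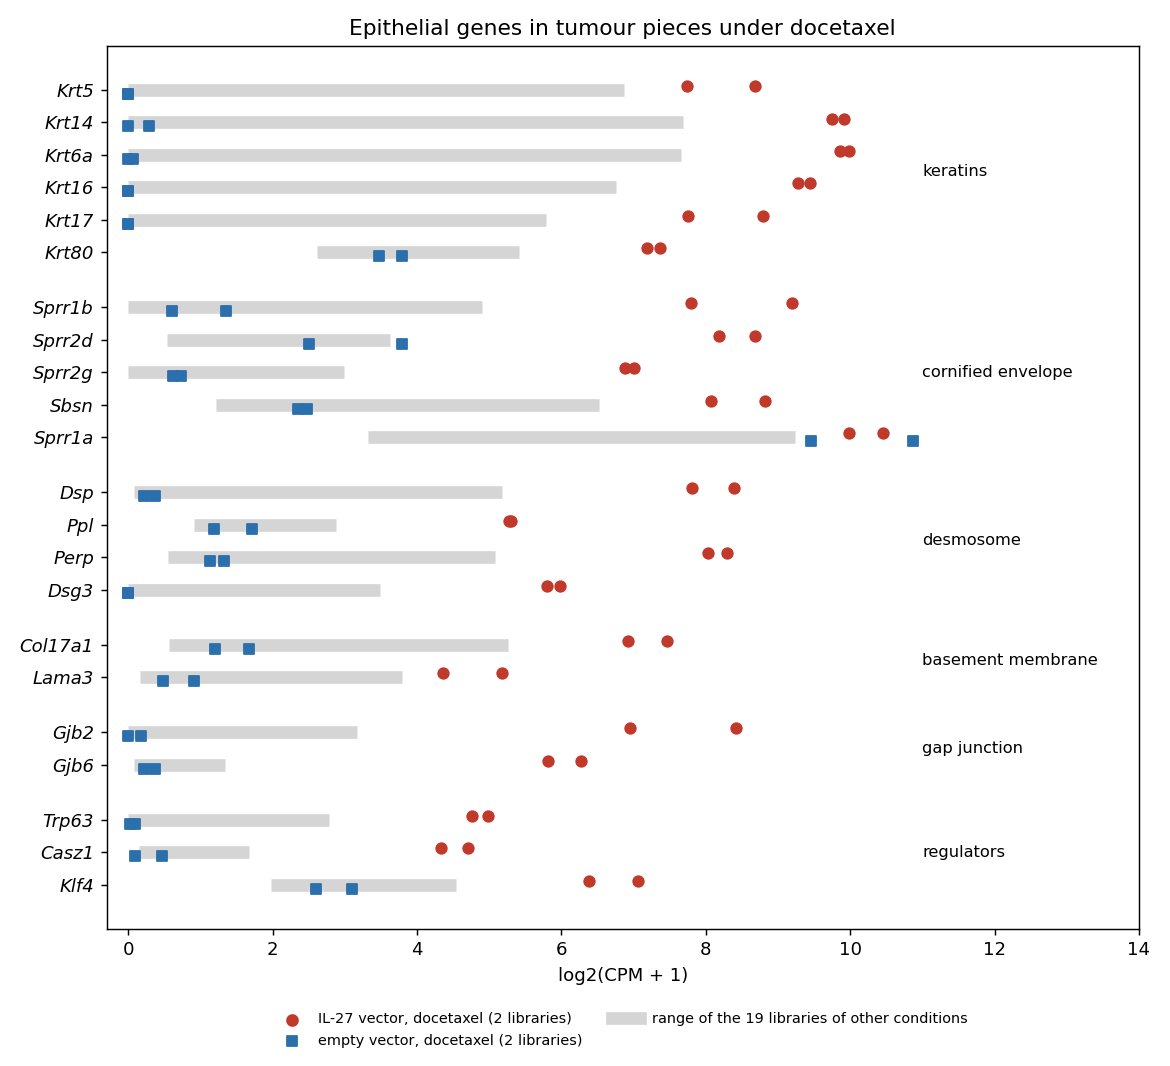
Levels of 22 epithelial genes in log2(CPM + 1), grouped by role, with red circles for the 2 IL27v docetaxel libraries and blue squares for the 2 EV docetaxel libraries. Grey bars span the 19 libraries of the other ex vivo conditions. For every gene but Sprr1a, both circles lie to the right of both squares and of the grey bar; for Sprr1a the groups overlap.

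The remaining genes that rose have other or wider roles. Sfn, the 14-3-3 sigma protein of keratinocytes, had 212 and 266 CPM in IL27v libraries, against 2.19 and 5.72 CPM in EV libraries, a rise of 5.92 ± 1.07 (log2 ± SE; edgeR adjusted p = 0.027). Esrp2, an epithelial splicing factor, had 21.5 and 17.6 CPM in IL27v libraries, against 1.94 and 0.762 CPM in EV libraries (3.85 ± 0.69, edgeR adjusted p = 0.027). Spns2, the exporter of sphingosine 1-phosphate, had 18.5 and 18.9 CPM in IL27v libraries, against 1.64 and 1.64 CPM in EV libraries (3.51 ± 0.45, edgeR adjusted p = 0.0047), with almost no spread within groups. Hpgds, a prostaglandin D synthase, had 24.3 and 14.2 CPM in IL27v libraries, against 0.855 and 0.762 CPM in EV libraries (4.57 ± 0.72, edgeR adjusted p = 0.016). Il13ra2, a decoy receptor for IL-13, had 3.17 and 3.04 CPM in IL27v libraries and no count in EV libraries, at least 61.1-fold higher (edgeR adjusted p = 0.017). In the other conditions Il13ra2 had 1.08 to 15.2 CPM in IL27v libraries and 0.418 to 2.33 CPM in EV libraries, and the EV docetaxel pair lay below all other EV libraries.

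Genes for envelope and membrane proteins make up more of the list. Cnfn, which encodes cornifelin of the cornified envelope, had 277 and 107 CPM in IL27v libraries, against 0.884 and 0.729 CPM in EV libraries (7.89 ± 1.35, edgeR adjusted p = 0.020). Kprp, a keratinocyte proline-rich protein of the complex on chromosome 3, had 95.9 and 39.0 CPM in IL27v libraries, against 1.19 and 1.39 CPM in EV libraries (5.71 ± 1.03, edgeR adjusted p = 0.028). Both were higher in the first IL27v library. Lypd3, a surface protein of suprabasal keratinocytes, had 76.4 and 154 CPM in IL27v libraries and no count in EV libraries, at least 1535-fold higher (edgeR adjusted p = 0.039). Cd24a, a surface glycoprotein of epithelial and blood cells, had 56.7 and 51.8 CPM in IL27v libraries, against 0.782 and 0.0663 CPM in EV libraries (6.98 ± 1.29, edgeR adjusted p = 0.031). Slc6a14, an amino acid transporter, had 80.4 and 55.0 CPM in IL27v libraries and no count in EV libraries, at least 1106-fold higher (edgeR adjusted p = 0.045).

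Smaller rises came from genes with counts in every library. Lgalsl, a galectin-like protein, had 131 and 68.0 CPM in IL27v libraries, against 20.7 and 12 CPM in EV libraries (2.61 ± 0.43, edgeR adjusted p = 0.017). Gba2, a glucosylceramidase, had 26.2 and 13.9 CPM in IL27v libraries, against 3.77 and 4.16 CPM in EV libraries (2.34 ± 0.41, edgeR adjusted p = 0.025). Ppif, cyclophilin D of mitochondria, had 135 and 51.1 CPM in IL27v libraries, against 19.3 and 27.8 CPM in EV libraries, and at 1.98 ± 0.40 it had the smallest fitted rise of the 64 (edgeR adjusted p = 0.044). Lipg, endothelial lipase, had 11.5 and 9.98 CPM in IL27v libraries, against 1.61 and 0.994 CPM in EV libraries (3.04 ± 0.52, edgeR adjusted p = 0.020). In the other conditions Lipg had 2.46 to 8.09 CPM in IL27v libraries and 1.99 to 7.06 CPM in EV libraries, all of them above the EV docetaxel pair. Others of the 64 were Anxa8, Fgfbp1, Ccdc120, Mal2, Sdcbp2, Cpm, Tmem79, Fam43a, Dnase1l3, AI661453, AA986860, Teddm3, Mreg, Egflam, 2310046K23Rik, Cck and Chchd10.

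Further results need a limit beside their value. Rab43, a trafficking GTPase, had 27.9 and 27.7 CPM in IL27v libraries, against 0.0869 and 0.0829 CPM in EV libraries (8.32 ± 1.56, edgeR adjusted p = 0.032). Its EV libraries of the other ex vivo conditions had 21.1 to 46.2 CPM, and the EV docetaxel pair lay below all other EV libraries. The entries Gm23935 and ENSMUSG00000118642 rest on 1 library: Gm23935 had 10104 and 5.36 CPM in IL27v libraries, against 1.74 and 1.97 CPM in EV libraries, in step with the ribosomal RNA share of IL27v docetaxel 1. Leaving out all ribosomal RNA genes and the 3 most uneven entries gave 64 genes higher and 3 lower.

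In edgeR, 2 genes fell. Rhox5, a homeobox gene of the X chromosome known from testis, placenta and tumours, had no count in IL27v libraries, against 2.38 and 21.7 CPM in EV libraries, and was at least 28.8-fold lower under the IL-27 vector (edgeR adjusted p = 0.0095). Gzmd, a granzyme of activated cytotoxic cells in mice, had no count in IL27v libraries, against 11.6 and 4.33 CPM in EV libraries, and was at least 52.3-fold lower (edgeR adjusted p = 0.033). The 5 listed granzymes of its chromosome 14 cluster, Gzmc, Gzmd, Gzme, Gzmf and Gzmg, all had both IL27v libraries below both EV libraries. Of all tested genes 16.7% did. Gzme had no count in IL27v libraries, against 3.96 and 3.18 CPM in EV libraries (edgeR adjusted p = 0.068). Gzmc had 0 and 0.784 CPM in IL27v libraries, against 7.27 and 8.60 CPM in EV libraries (edgeR adjusted p = 0.23). Their sum was 0 and 0.976 CPM in IL27v libraries, against 42.8 and 27.2 CPM in EV libraries, and limma and DESeq2 called all 5 lower. These granzymes are close copies of each other, so reads may be shared among them. Gzmb, the widely studied killer-cell granzyme, is not among the 5 listed. It overlapped at 0.662 and 2.41 CPM in IL27v libraries and 1.75 and 1.39 CPM in EV libraries.

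Below the threshold, the most separated lower genes included Hmgn3, a nucleosome-binding protein, with 12.4 and 17.4 CPM in IL27v libraries and 37.5 and 45.3 CPM in EV libraries (-1.47 ± 0.31, edgeR adjusted p = 0.053). Bgn, the matrix proteoglycan biglycan, had 642 and 1112 CPM in IL27v libraries, against 2487 and 2509 CPM in EV libraries (-1.51 ± 0.34, edgeR adjusted p = 0.075). Limma and DESeq2 called both lower, at adjusted p values of 0.0057 and 8.5e-06 for Hmgn3 and 0.02 and 0.0012 for Bgn. The list of fibroblast and matrix genes does not hold Bgn, and 11 of its 16 genes had both IL27v libraries below both EV libraries and 3 above, with no member past the threshold in edgeR, limma or DESeq2 and 4 at an unadjusted p under 0.05. Their sum was 3478 and 5127 CPM in IL27v libraries, against 8608 and 7879 CPM in EV libraries. In bulk tissue, fewer cells of a type and less RNA per cell cannot be told apart.

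Whether the vector difference was wider under docetaxel than elsewhere was tested as an interaction. Set against the mean vector difference of the other 5 ex vivo conditions (media, cabozantinib, anti-PD-L1, cabozantinib with IL-27, and IL-27), 11 genes were further raised under docetaxel and 1 further lowered (0.045% and 0.00409% of tested genes, 0.0491% in all; edgeR, with 906 genes, 3.71%, at an unadjusted p under 0.05). The 11 included Gjb6, Spns2, Casz1, Col17a1, Krt80, Sprr2g, Elovl4, Hpgds, Ppl and Lama3, and the 1 was Rhox5, each at an adjusted p of 0.049. For Gjb6 the difference between differences was 6.59 ± 1.03 (log2 ± SE), and its other IL27v libraries had 0.0615 to 1.54 CPM. For Krt80 it was 3.03 ± 0.52, where the other IL27v libraries had 7.41 to 41.7 CPM and the other EV libraries 5.15 to 21.1 CPM. For Sprr2g it was 7.73 ± 1.18, where the other IL27v libraries had 0 to 6.91 CPM and the other EV libraries 0.17 to 0.84 CPM. Against media alone, Casz1, Sprr2g, Sprr1b, Gjb6 and Spns2 differed (0.0205% of tested genes; edgeR, with 1504 genes, 6.15%, at an unadjusted p under 0.05).

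These interaction calls are limited by how edgeR treats groups with no counts. For 3011 of the 24440 genes in the first interaction and 1772 in the second, a log2 difference above 3 in size came with a p above 0.99, and 7 of the 64 genes that rose are among the 3011. Limma, which gives such genes a finite value, called 369 genes higher and 6 lower in the first interaction (1.51% and 0.0245%, 1.53% in all) and 207 higher and 1 lower in the second (0.847% and 0.00409%, 0.851% in all). With the muscle sum as a covariate edgeR called no gene in either interaction, with 875 and 1025 genes at an unadjusted p under 0.05. Without IL27v docetaxel 1 it called none, with 557 and 1024 at an unadjusted p under 0.05, and without EV docetaxel 2 none, with 539 and 1222.

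By library, the keratinocyte list of 16 genes summed to 6187 and 5681 CPM in IL27v docetaxel, against 706 and 1880 CPM in EV docetaxel, and Sprr1a alone made up 699 and 1870 CPM of the EV sums. In the other 9 IL27v libraries the sum ran from 23.2 to 1161 CPM, and in the other 10 EV libraries from 78.1 to 489 CPM. The highest of these was IL27v anti-PD-L1 1, which was also the highest other library for 42 of the 64 genes that rose. Without it 160 genes were called higher and 6 lower. In media the median log2 difference of the list was -0.06, and in the mean of the other 5 conditions 3.09, beside 10.81 under docetaxel, or 9.01 with genes at 0 in EV libraries set at their bound. Of the 64 genes that rose under docetaxel, 58 were also positive in the mean of the other 5 conditions and 11 were called there. These 2 shares were not computed over all tested genes, whose median log2 difference in that mean was -0.01. The mean includes IL27v anti-PD-L1 1, and how far the 58 and 11 rest on that library was not tested. Of the 16 listed genes, 4 rose and 13 had both IL27v libraries above both EV libraries. The 2 IL27v docetaxel libraries were alike in this list while they differed in muscle transcripts. With the muscle sum as a covariate 22 genes were called higher, and the part of other tissues in the pieces was not tested.

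**Figure D4:**
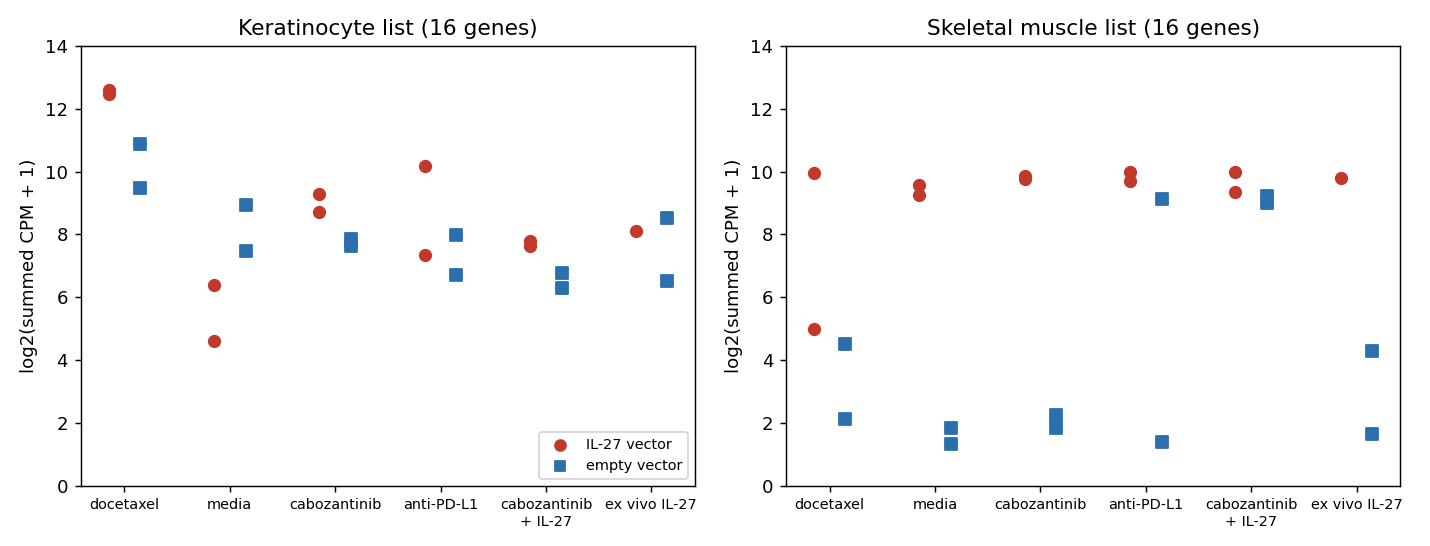
Summed level of 16 keratinocyte genes (left) and 16 skeletal muscle genes (right) in each of the 23 libraries, in log2(summed CPM + 1), by ex vivo condition, with red circles for IL27v and blue squares for EV libraries. In the left panel the 2 IL27v docetaxel circles, at 6187 and 5681 CPM, lie above every other library. In the right panel IL27v docetaxel 1, at 31.0 CPM, lies nearest the EV docetaxel libraries, and IL27v docetaxel 2, at 985 CPM, with the other IL27v libraries. Some EV libraries were high too: cabozantinib with IL-27, at 593 and 511 CPM, and anti-PD-L1 2, at 559 CPM.

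Markers of the tissues that border a flank tumour were read beside the epithelial genes. Hair follicle and sebaceous genes summed to 1130 and 732 CPM in IL27v libraries, against 595 and 491 CPM in EV libraries. Of 14 tested members, 6 were above and none below, beside 21.7% and 16.7% of all tested genes. Krt79, a keratin of the hair canal, had 7.28 and 60.9 CPM in IL27v libraries, against 0.0869 and 0.447 CPM in EV libraries (edgeR adjusted p = 0.21). Krt75, a hair follicle keratin, had 10.9 and 9.69 CPM in IL27v libraries and no count in EV libraries (edgeR adjusted p = 0.26). The inner root sheath keratins Krt71, Krt73 and Krt28 had no count in the 4 libraries. Melanocyte genes summed to 19.9 and 20.8 CPM in IL27v libraries, against 12 and 6.51 CPM in EV libraries. Adipocyte genes summed to 182 and 95.2 CPM in IL27v libraries, against 52.5 and 44.3 CPM in EV libraries, with Lep, leptin, at 14.1 and 0 CPM in IL27v libraries and no count in EV libraries. None of these lists had a member past the edgeR threshold, and 4, 2 and 2 members were at an unadjusted p under 0.05. Limma called 1 hair follicle and 1 melanocyte gene higher, and DESeq2 called 1 melanocyte and 1 adipocyte gene higher. Whether pieces with the IL-27 vector held overlying skin was not tested.

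General epithelial and prostate genes separated only in part. Cdh1, E-cadherin, had 71.9 and 92.2 CPM in IL27v libraries, against 0.232 and 0 CPM in EV libraries (edgeR adjusted p = 0.085). The mouse gene Hras, which is not in that list, overlapped, at 39.3 and 26.7 CPM in IL27v libraries and 20.9 and 52.5 CPM in EV libraries.

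T-cell genes were near the limit of detection. The list of 20 summed to 13.3 and 20.3 CPM in IL27v libraries, against 6.43 and 3.63 CPM in EV libraries. Cd3e, which encodes CD3 epsilon, had 0.359 and 0.416 CPM in IL27v libraries and no count in EV libraries (edgeR adjusted p = 0.29). Cd4 had 0.772 and 1.55 CPM in IL27v libraries, against 0.232 and 0.331 CPM in EV libraries, and Cd8a had no count in the 4. Of the list, 14 had both IL27v libraries above both EV libraries and none the other way. No member passed in edgeR or limma, 4 had an unadjusted p under 0.05, and DESeq2 called 3. Ifng, interferon gamma, had 0 and 0.064 CPM in IL27v libraries and no count in EV libraries, against floors of 0.0435 to 0.0826 CPM for 3 counts in these libraries.

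Antigen presentation and chemokine genes had no member past the edgeR threshold. MHC class II genes summed to 206 and 245 CPM in IL27v libraries, against 77.1 and 72.7 CPM in EV libraries, and 9 of 11 had both IL27v libraries above both EV libraries. Of these 11 genes 2 had an unadjusted p under 0.05, and limma called none and DESeq2 1. H2-Ab1, a class II beta chain, had 17.0 and 27.9 CPM in IL27v libraries, against 3.25 and 2.30 CPM in EV libraries (3.02 ± 1.07, edgeR adjusted p = 0.30). H2-K1, a class I heavy chain, had 241 and 270 CPM in IL27v libraries, against 63.6 and 84.5 CPM in EV libraries (1.79 ± 0.64, edgeR adjusted p = 0.30). Its partner B2m overlapped, at 398 and 562 CPM in IL27v libraries and 474 and 574 CPM in EV libraries.

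The neutrophil-attracting Cxcl1 had 270 and 246 CPM in IL27v libraries, against 65.4 and 69.0 CPM in EV libraries (1.94 ± 0.80, edgeR adjusted p = 0.41). Cxcl3, of the same group, had 115 and 87.1 CPM in IL27v libraries, against 7.16 and 5.95 CPM in EV libraries (3.95 ± 1.28, edgeR adjusted p = 0.25). In this list of neutrophil-attracting chemokines 4 of 6 tested genes were above, 4 had an unadjusted p under 0.05, and limma called none and DESeq2 2. Of 13 genes of CC chemokines and their receptors, 12 had both IL27v libraries above both EV libraries, with sums of 609 and 540 CPM in IL27v libraries and 195 and 279 CPM in EV libraries. In that list 3 genes had an unadjusted p under 0.05 and neither limma nor DESeq2 called any. Cd274, which encodes PD-L1, had 29.4 and 29.3 CPM in IL27v libraries, against 10.4 and 7.14 CPM in EV libraries. Neutrophil-list genes summed to 247 and 313 CPM in IL27v libraries, against 13.2 and 10.5 CPM in EV libraries, with 6 of 14 above and 1 below. S100a9 and S100a8, which activated keratinocytes also make, made up most of the IL27v sums, so the sum does not measure neutrophils alone. In that list edgeR called 1 gene higher (S100a9), limma 4 and DESeq2 6, with 5 at an unadjusted p under 0.05. Mmp8, the neutrophil collagenase, had 8.83 and 7.55 CPM in IL27v libraries, against 0.406 and 0 CPM in EV libraries (edgeR adjusted p = 0.12), while the granule genes Elane and Mpo had no count in the 4 libraries. Type I interferon-stimulated genes had a median log2 difference of 0.73 under docetaxel, beside 0.84 in the mean of the other 5 conditions and 2.95 in media, and 16 of 27 had both IL27v libraries above both EV libraries, with 1 at an unadjusted p under 0.05 and none called by edgeR, limma or DESeq2. Neither edgeR nor limma called any of them in the interaction with media.

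Genes of the docetaxel target and of the responses it is known for were read as 3 lists. The 14 tubulin-list genes had a median log2 difference of 0.00, 3 with both IL27v libraries above both EV libraries and 1 below. Over all tested genes 21.7% lay above in this way and 16.7% below, so the tubulin count above is near that share. Tubb5, an abundant beta-tubulin, had 1386 and 1599 CPM in IL27v libraries, against 1581 and 1966 CPM in EV libraries. Tuba8, a tissue-restricted alpha-tubulin, had 23.2 and 31.9 CPM in IL27v libraries, against 1.32 and 4.08 CPM in EV libraries (3.35 ± 1.06, edgeR adjusted p = 0.23). Mitotic genes had 7 of 20 with both IL27v libraries below both EV libraries and none above, at a median of -0.24. The p53 targets had 9 of 18 above and 1 below, at a median of 0.58, and summed to 1021 and 1017 CPM in IL27v libraries, against 709 and 728 CPM in EV libraries. Mki67, a marker of cycling cells, overlapped at 122 and 167 CPM in IL27v libraries and 248 and 118 CPM in EV libraries. Pmaip1, the p53 target NOXA, had 22.0 and 12.1 CPM in IL27v libraries, against 2.13 and 1.54 CPM in EV libraries (3.21 ± 0.82, edgeR adjusted p = 0.12), while Cdkn1a, p21, overlapped at 262 and 352 CPM in IL27v libraries and 162 and 304 CPM in EV libraries.

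No member of the tubulin, mitotic or p53 lists passed in edgeR, and 1, 1 and 4 had an unadjusted p under 0.05, where 10% of all tested genes did. Limma called 1 p53 target, and DESeq2 called 1 tubulin and 3 p53 targets. Cholesterol synthesis genes had 12 of 19 with both IL27v libraries above both EV libraries and none below, at a median of 0.65, with 7 at an unadjusted p under 0.05, none called by edgeR or limma and 2 by DESeq2. Of AP-1 and immediate early genes, 13 of 19 had both IL27v libraries above both EV libraries, and Klf4, given above, was the one that rose. Junb, an AP-1 subunit, had 281 and 182 CPM in IL27v libraries, against 32.2 and 64.1 CPM in EV libraries (2.26 ± 0.96, edgeR adjusted p = 0.43).

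**Figure D5:**
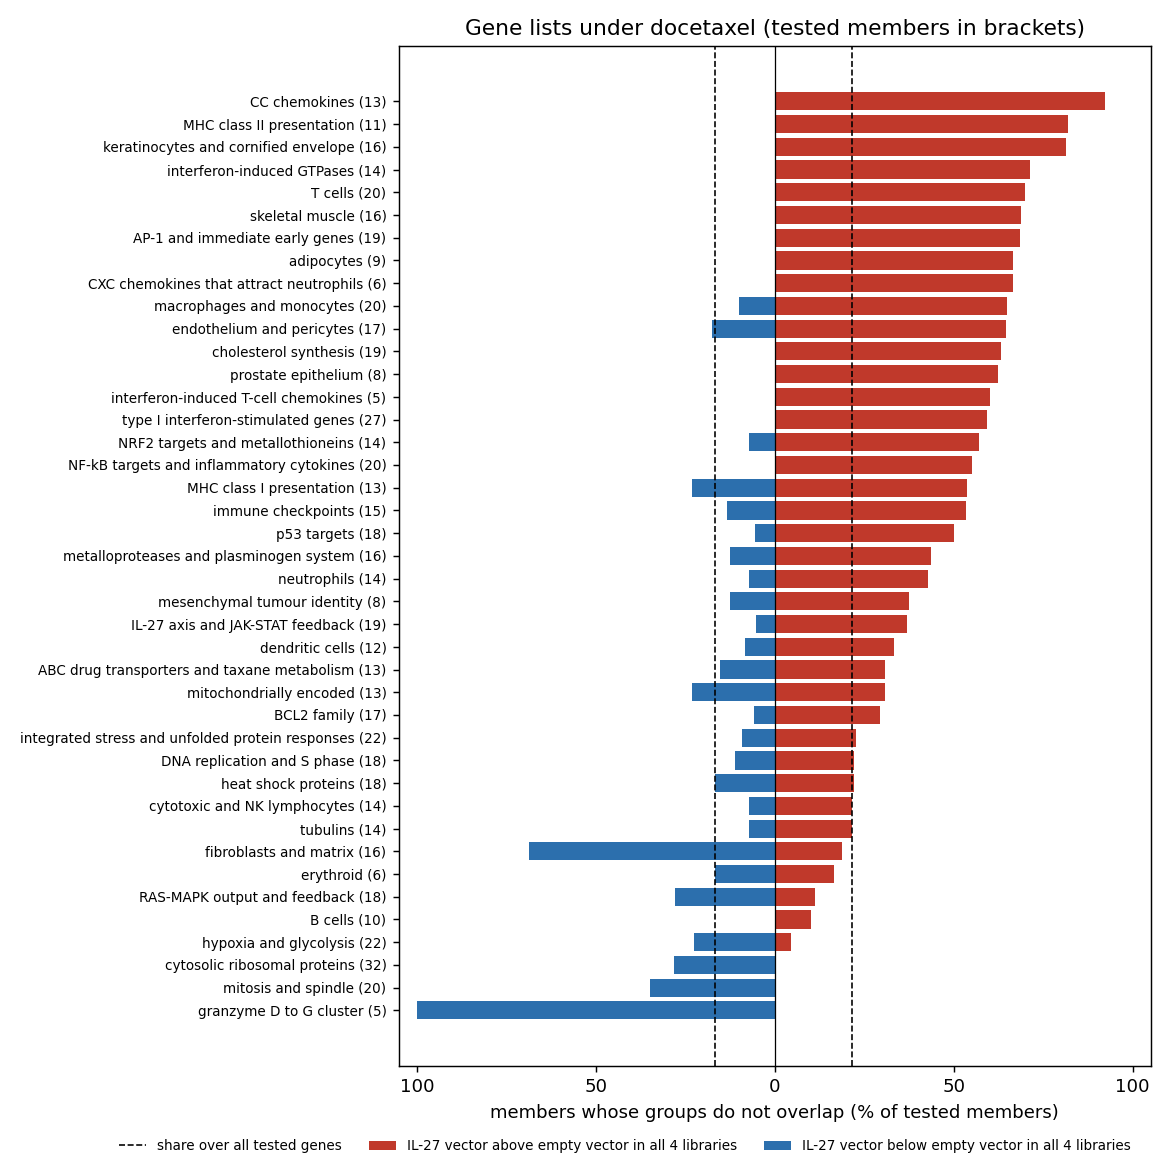
Share of the tested members of each of 41 lists, without the added epithelial families, in percent, whose 2 IL27v docetaxel libraries both lie above (red, to the right) or both lie below (blue, to the left) the 2 EV docetaxel libraries. Numbers in brackets are tested members, and dashed lines mark the shares over all tested genes, 21.7% above and 16.7% below. Among these lists, CC chemokines, MHC class II and keratinocyte genes reach furthest to the right, and the granzyme cluster and fibroblast genes furthest to the left.

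The genes of IL-27 itself had few counts in the tumour pieces. Il27 had 0 and 0.32 CPM in IL27v libraries, against 0 and 0.0663 CPM in EV libraries. Ebi3 had 0.441 and 0.720 CPM in IL27v libraries, against 0.0724 and 0.199 CPM in EV libraries. Il27ra, the receptor chain, overlapped at 1.85 and 2.49 CPM in IL27v libraries and 2.23 and 5.17 CPM in EV libraries. Socs3, a feedback inhibitor, had 96.5 and 83 CPM in IL27v libraries, against 40.1 and 64.2 CPM in EV libraries (0.78 ± 0.61, edgeR adjusted p = 0.66). Its groups did not overlap, and it did not pass the test. Of the 19 tested genes of the list, 7 had both IL27v libraries above both EV libraries and 1 below, beside 21.7% and 16.7% of all tested genes. None passed in edgeR, limma or DESeq2, and 1, Socs1, had an unadjusted p under 0.05.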

How the data were processed

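RNA from tumour pieces was sequenced as poly(A) stranded paired-end libraries, per the labels' protocols. Estimated counts for each gene in 23 libraries, held as whole numbers, were deposited by the authors in 1 table. The submitters' processing notes name cutadapt, HISAT2, StringTie, DESeq2 and GRCm38, with versions and roles not given in the sources used here. The labels put IL27_Doce_1 and IL27_Doce_2 in the IL27v docetaxel group and ctrl_Doce_1 and ctrl_Doce_2 in the EV docetaxel group. A model of 12 group means was fitted over all 23 libraries with edgeR 4.0.16 (R 4.3.3), TMM scaling and filterByExpr, and tested by quasi-likelihood with Benjamini-Hochberg adjustment over 24440 genes. Vector differences are IL27v minus EV, and interactions subtract the vector difference in media or its mean over the other 5 conditions. Limma 3.58.1 (trend, prior count 2) and DESeq2 1.42.0 were alternatives. On simulated counts, the edgeR fit recovered 41% of 4-fold and 85% of 16-fold changes in the vector difference. It recovered 36% and 82% in the interaction with the other 5 conditions, and 8% and 58% in that with media. A gene that was not called may therefore still differ. Whether these shares hold for genes with no count in either EV docetaxel library was not tested. Of the genes that rose, 11 were at 0 there. EdgeR called none of the 21 LCE genes, of which at least 17 were at 0 there, and it did not call Krt5, Abca12 or Dsg3. For a group at 0, the floor was 3 counts in each library.

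Depth was 47641781 to 83088346 counts. Between 31.7% and 35.3% of counts from 1 to 40 were multiples of 4, where an even spread gives 25%, and how the counts were formed is not given in the sources used here. The comparison and the lists were chosen with earlier results of these data known, and the epithelial families were added after their values were seen. The rule for naming took up to 12 called genes each way with a mean of at least 1 CPM, filled by order of p, up to 6 each way per interaction, up to 4 members of each list by smallest p, all members of some lists and some fixed genes. Other named genes were chosen after their values were seen. Promoter windows came from RefSeq, GRCm38.p6. Some genes are not reported here.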

Additional observations from a re-analysis of the deposited data

Results flagged for a closer look

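For the genes given here, the vector difference under docetaxel differed from its mean over the other 5 ex vivo conditions at an edgeR adjusted p of 0.049 for the interaction. The difference between the differences (log2 ± SE) was 6.59 ± 1.03 for Gjb6, 5.22 ± 0.85 for Casz1, 4.90 ± 0.83 for Col17a1 and 5.68 ± 0.97 for Lama3. It was 7.73 ± 1.18 for Sprr2g, 4.55 ± 0.78 for Ppl, 3.03 ± 0.52 for Krt80 and 4.76 ± 0.82 for Elovl4. It was 4.75 ± 0.76 for Hpgds and 2.96 ± 0.47 for Spns2. For Rhox5 it was -11.13 ± 1.80, a fitted value that rests on IL27v docetaxel libraries with no count and is no bound.

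In the mean of the other 5 conditions the vector difference itself was 1.39 ± 0.32 for Casz1 (edgeR adjusted p = 0.047) and 1.49 ± 0.32 for Col17a1 (edgeR adjusted p = 0.031), the same direction as under docetaxel. It was -0.06 ± 0.38 for Sprr2g (edgeR adjusted p = 1).

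Against media alone the interaction passed for 5 genes. The difference between the differences was 7.72 ± 1.08 for Casz1 (edgeR adjusted p = 0.026), 10.97 ± 1.56 for Sprr2g (edgeR adjusted p = 0.026) and 12.08 ± 1.77 for Sprr1b (edgeR adjusted p = 0.036). It was 8.15 ± 1.26 for Gjb6 (edgeR adjusted p = 0.039) and 3.74 ± 0.60 for Spns2 (edgeR adjusted p = 0.047).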

How the results depend on the processing

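The count of genes called for the vector difference, 66, stayed within 1.5 times under RLE scaling, a minimum of 1 CPM in 2 libraries, removal of ribosomal RNA genes and the replicate block. It was 899 in DESeq2, 1037 with no filter, 23 with the muscle sum as a covariate, 146 with counts divided by 4, and 531 with the 4 docetaxel libraries alone. It ranged from 0 to 80 when 1 docetaxel library was left out. Of alternatives chosen after seeing the data, it was 689 in limma and 166 without IL27v anti-PD-L1 1. Against the mean of the other 5 conditions, the 12 calls became 185 in DESeq2, 259 with no filter, 0 at a minimum of 1 CPM in 2 libraries (703 at an unadjusted p under 0.05), 0 with the muscle covariate, 19 with counts divided by 4, 375 in limma, 34 without IL27v anti-PD-L1 1, and 0 to 5 with 1 docetaxel library left out. Against media, the 5 calls became 278 in DESeq2, 531 with no filter, 3 at the CPM minimum, 0 with the muscle covariate, 208 in limma, 26 without IL27v anti-PD-L1 1, and 0 to 9 with 1 docetaxel library left out. The cause of these shifts was not tested.

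Docetaxel libraries with the same replicate number correlated at 0.062 in their deviations from the group means, and no label ties them, so they were read as sharing only a number; other conditions were not checked. With the replicate block 52 genes were called, 50 of them among the 66, and 0 in each interaction, with 853 and 1372 genes at an unadjusted p under 0.05.

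Over the 16 alternatives of the vector difference, none of the 1053 values of the called genes changed sign. These genes were called on the same libraries, and all 64 that rose had groups that did not overlap. Their signs could thus hardly change, and that count is no check of the calls. Of 4819 gene values over all tests and alternatives, 402 lost the threshold, 214 gained it and none reversed. Of 656 list medians, 129 moved by more than the spread between replicates. A group of 2 libraries limits every value, and genes at 0 in EV libraries have no fold beyond a bound.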

Other observations

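Several lists not described above held no gene past the edgeR threshold. Over all tested genes, 21.7% had both IL27v docetaxel libraries above both EV docetaxel libraries and 16.7% had both below. An unadjusted p under 0.05 was reached by 10% of them. Macrophage and monocyte genes had 13 of 20 with both IL27v docetaxel libraries above both EV docetaxel libraries and 2 below, with 5 at an unadjusted p under 0.05; limma called none and DESeq2 1 higher and 1 lower. Spp1, osteopontin, had 118 and 273 CPM in IL27v libraries, against 506 and 876 CPM in EV libraries (-1.82 ± 0.50, edgeR adjusted p = 0.14). Itgam, the CD11b integrin of myeloid cells, had 43.4 and 41.3 CPM in IL27v libraries, against 11.1 and 10.4 CPM in EV libraries.

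Cytosolic ribosomal protein genes had 9 of 32 with both IL27v libraries below both EV libraries, where 16.7% of all tested genes did, and none above. Their median log2 difference was -0.79, with 3 at an unadjusted p under 0.05 and none called by edgeR, limma or DESeq2. Their sum was 27602 and 34958 CPM in IL27v libraries, against 35339 and 68190 CPM in EV libraries.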
